A study of Medicago sativa with 86 samples.

Results

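Leaves of the alfalfa (Medicago sativa) cultivar Saranac in its ineffective class, a term used of legumes whose nodules do not fix nitrogen, were compared between elevated and ambient CO2. Members were chosen by their labels alone: cultivar Saranac, fixation class ineffective and any CO2 or nitrate treatment. This gave 21 of the 86 leaf mRNA libraries of the series, 11 at 600 ppm CO2 (elevated) and 10 at 420 ppm (ambient). The whole series crossed cultivars Saranac and Agate, effective and ineffective classes, those CO2 levels and 3 nitrate levels.

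All plants were inoculated with a rhizobium culture in sterilised clay and sand, and got weekly feeds of dilute Hoagland solution at 6, 10 or 16 mM KNO3. The 420 ppm side had 3, 4 and 3 libraries in order of rising nitrate, and the 600 ppm side 4, 3 and 4. The labels do not say whether ineffectiveness lies in the plant or in the bacterium, how old the plants were, or whether a library is 1 plant, so p-values measure the spread between libraries, which may be technical. The plants were split between chambers held at one CO2 level or the other, so an effect of CO2 and an effect of the chamber cannot be told apart. Library numbers follow CO2 as well, every 600 ppm library of the series being numbered below every 420 ppm one.

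As background, legume nodules house rhizobia that reduce dinitrogen to ammonia in exchange for plant carbon, and a plant whose nodules fix nothing depends on nitrate and other mineral nitrogen. Extra CO2 raises carbon fixation by Rubisco and lowers photorespiration, and leaves short of nitrogen are known to lower their photosynthetic capacity under long exposure to it. The question put by the series is how the leaf responds to CO2 when fixation is or is not available. Genes are given here by the identifiers of the count table. The table does not pair them with names, and 0 of the 49095 could be found in the RefSeq gene list used, so roles, leaf markers and sequences are not given.

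The 21 libraries held 15940070 to 25910031 counts assigned to genes, and total counts did not differ detectably between CO2 levels (mean difference of -683658 counts, exact permutation test within nitrate levels, two-sided p = 0.56). The number of genes at 1 CPM (counts scaled by library size) or more lay between 16626 and 17419 (p = 0.9 by the same exact permutation test). No pair of libraries was identical. A pair of the 420 ppm libraries stood apart from the other 8: replicate 1 at 10 mM and replicate 4 at 16 mM. Each library was scored along the difference between 600 and 420 ppm at the 2 nitrate levels it does not belong to, on a scale where -1 and 1 are the means of 420 and 600 ppm. The other 8 libraries at 420 ppm scored between -0.994 and -0.424, and the 11 libraries at 600 ppm between 0.257 and 0.887. Replicate 1 at 10 mM scored 0.268 and replicate 4 at 16 mM scored 0.354, on the side of the 600 ppm libraries and within their range. Results below are therefore also given without this pair, an alternative chosen after seeing the data. Since the pair was picked for lying near the other CO2 level, its removal widens the gap between CO2 levels by construction. Why those libraries lie there, by a mix-up or otherwise, was not tested.

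The mean score of the 420 ppm libraries was -0.531 ± 0.486 (SD, n = 10) and that of the 600 ppm libraries 0.604 ± 0.188 (SD, n = 11), a difference of 1.14. No p-value is given over the levels, since the CO2 labels of each level also set the scores of the others. By level, the difference was 1.55 at 6 mM (exact permutation p = 0.029, adjusted over the 3 levels 0.043) and 0.837 at 16 mM (0.029, adjusted 0.043). At 10 mM it was 1.04 and did not pass (exact permutation p = 0.086, adjusted 0.086). With 3 libraries against 4, the smallest p this test can give is 0.029.

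**Figure D1:**
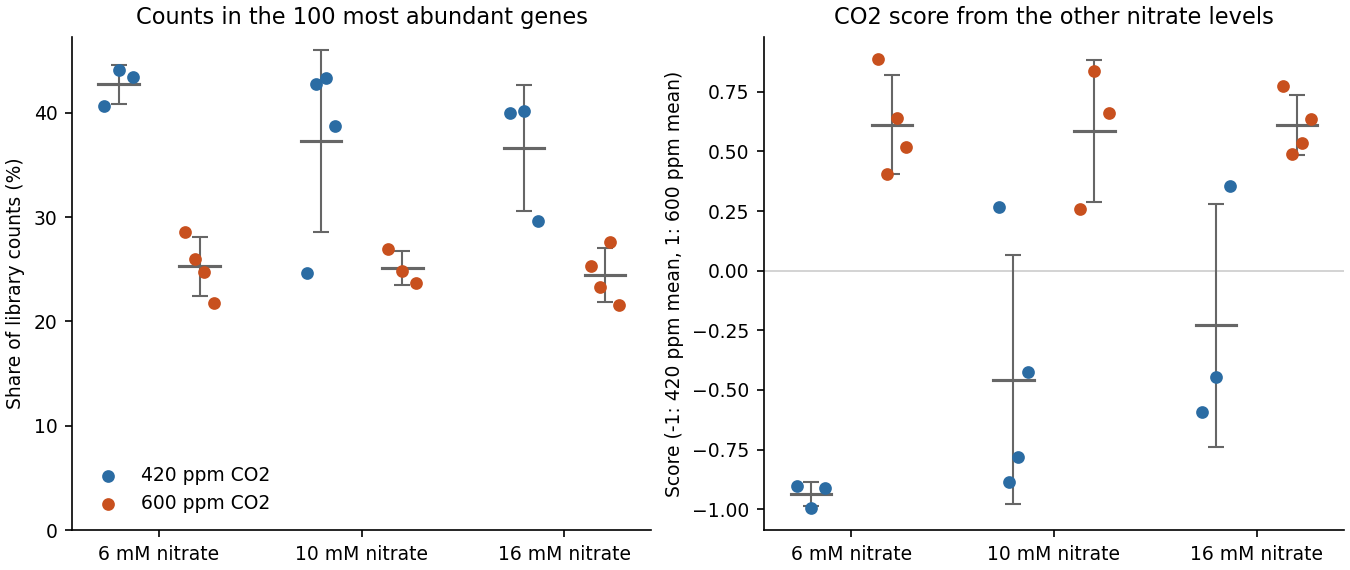
Left, the percentage of each library's counts that fell on the 100 most abundant genes, and right, the CO2 score, for each nitrate level at 420 ppm (blue) and 600 ppm (orange). Points are libraries, lines are means and bars are SD, and the 420 ppm points at 24.6% (10 mM) and 29.6% (16 mM) lie nearest to the 600 ppm libraries.

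Many leaf genes differed between CO2 levels in ineffective Saranac, about as many up as down. Averaged over the 3 nitrate levels, 3083 genes rose and 3074 fell at 600 ppm among 24386 tested, which is 25.2% of them (12.6% rose and 12.6% fell, edgeR quasi-likelihood test, adjusted p under 0.05). Of those, 1434 rose and 1457 fell by more than 1 on the log2 scale, and the median size of a called change was 0.94. The counts are from whole leaf tissue, so fewer cells of a type and less RNA per cell cannot be told apart. The near-equal split depends on scaling. When libraries were scaled by their totals alone instead of by the trimmed mean of M-values (TMM), the median over all genes moved to 0.32 on the log2 scale, and 6221 genes were called higher and 1426 lower, 81.4% higher against 50.1% with TMM. All changes below are relative to the TMM centre.

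Genes whose libraries separated completely were few. The 11 libraries at 600 ppm lay above all 10 at 420 ppm for 116 genes and below all of them for 131 genes, 1.01% of those tested, and all 247 of these were called. Without the pair of libraries described above, 329 genes were separated upward and 559 downward, 3.64% in all. The call count moved less, to 3239 higher and 3238 lower, and 5617 of the original calls (91.2%) were among them in the same direction.

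The genes described for this comparison were taken from the separated ones with a mean of at least 1 CPM, so larger or more abundant changes exist among genes with overlap. MsG0180004895.01 had the largest fitted rise of the separated genes: 7 of the 10 libraries at 420 ppm held no count for it and the highest held 0.275 CPM, whereas at 600 ppm the lowest library held 0.861, the median 7.02 and the highest 24.9 CPM. It was thus close to silent at 420 ppm, with 11 counts over 10 libraries, and present in every library at 600 ppm, with 1866 counts. Its log2 fold change was 6.97 ± 1.0 (SE, edgeR adjusted p = 3.2e-07), and it passed at each level (7.23, 7.04 and 6.63 at 6, 10 and 16 mM). At 16 mM only 2 counts lay behind the 420 ppm side, and the ratio of summed counts was 120 (exact 95% limits 33.1 and 996, for counting error alone).

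MsG0180005457.01 was the most abundant of the separated genes that rose. It ranged from 97.7 through a median of 232 to 359 CPM at 420 ppm, and from 365 through 504 to 697 CPM at 600 ppm. The highest library at 420 ppm and the lowest at 600 ppm nearly met. The log2 fold change was 1.23 ± 0.22 (SE, edgeR adjusted p = 1.7e-05). Taken level by level it passed only at 16 mM (1.69, edgeR adjusted p = 0.0065), with 1.00 at 6 mM (adjusted p = 0.068) and 0.99 at 10 mM (adjusted p = 0.11).

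MsG0880047545.01 had the largest fitted fall of the separated genes. At 420 ppm it ranged from 0.11 through 1.18 to 6.51 CPM, and at 600 ppm 7 of 11 libraries held no count, with 4 counts in all. Those 4 counts were 1 in each library at 16 mM, so it was nowhere abundant at 600 ppm. Its log2 fold change was -7.26 ± 1.3 (SE, edgeR adjusted p = 5e-05). It had no count at 600 ppm against 85 at 420 ppm with 6 mM, and none against 74 with 10 mM. With a floor of 3 counts over the group, it was at least 50-fold lower at 6 mM and at least 20-fold lower at 10 mM. Such bounds, here and below, cover counting error alone. Level by level it passed at 6 mM (edgeR adjusted p = 0.017) and 16 mM (adjusted p = 0.039) but not at 10 mM (adjusted p = 0.099). At 10 mM, 64 of the 74 counts lay in replicate 2.

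MsG0380015348.01 was the most abundant of the separated genes that fell and ranked 2 among all genes by mean CPM. It ranged from 16955 through 41726 to 56951 CPM at 420 ppm and from 6261 through 12132 to 14014 CPM at 600 ppm. The lowest 420 ppm value was that of replicate 1 at 10 mM, which still lay above every library at 600 ppm. The log2 fold change was -1.97 ± 0.2 (SE, edgeR adjusted p = 1.4e-10), with -1.99, -1.72 and -2.18 at 6, 10 and 16 mM.

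**Figure D2:**
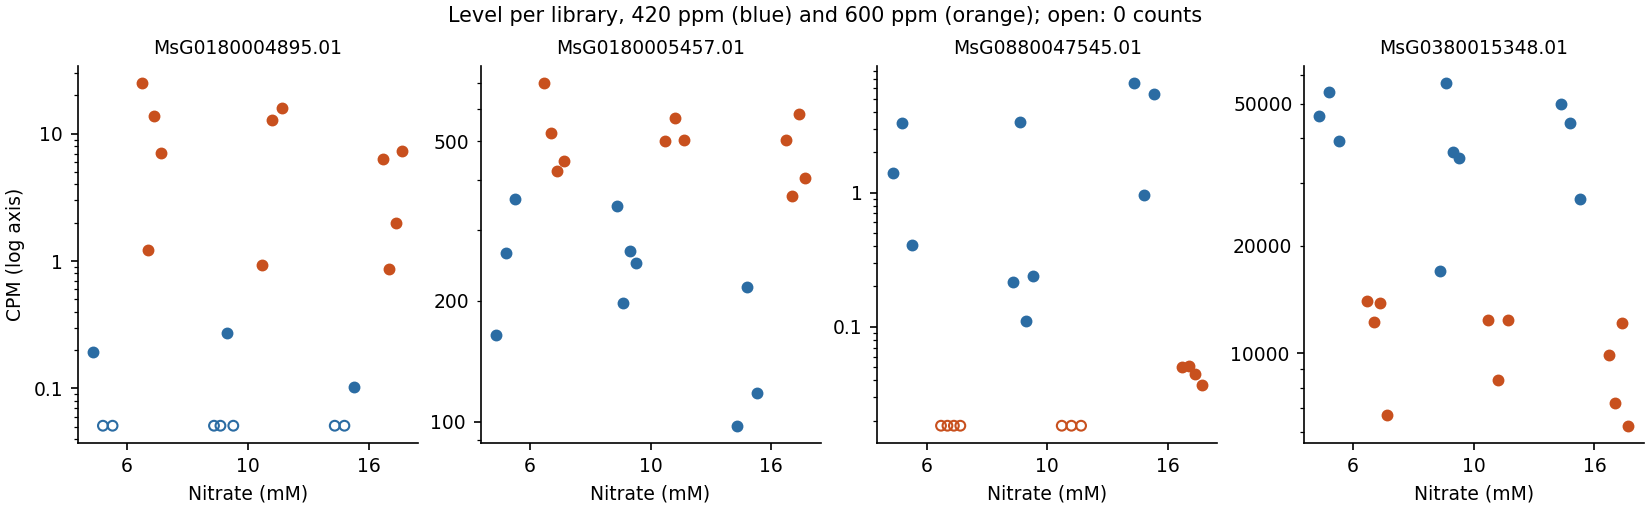
CPM on log axes in each of the 21 libraries for 2 separated genes that rose and 2 that fell in the comparison over nitrate levels, at 420 ppm (blue) and 600 ppm (orange). Each point is a library, and open points, drawn below the lowest value of the panel, are libraries with 0 counts. In every panel the CO2 levels do not overlap.

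The most abundant transcripts of the leaf fell at elevated CO2. Ranked by mean CPM over the 85 grouped libraries, a ranking that is not per transcript length, 73 of the first 100 genes fell and 7 rose. Over all genes tested, 12.6% fell and 12.6% rose. The median log2 fold change was -0.86 in the first 100 against 0.00 over all genes tested. Among the next 900 genes, 174 rose and 274 fell (median -0.11). Among the 4000 after those, 812 rose and 793 fell (median 0.01), and the remaining 19386 held 2090 rises and 1934 falls. The share called either way rose with abundance, from 20.8% of those 19386 to 80% of the first 100. Under scaling by library totals, 59 of the first 100 still fell and 10 rose, while the next 900 turned to 316 rises and 150 falls. Without the outlying pair of libraries, 75 of the first 100 fell and 5 rose.

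The same shift could be read in each library before any test of genes. The first 100 genes took from 24.6% through a median of 40.4% to 44.1% of the counts at 420 ppm, and from 21.6% through 24.8% to 28.6% at 600 ppm. Apart from replicate 1 at 10 mM (24.6%), every library at 420 ppm lay above every library at 600 ppm. Its mean at 420 ppm was 38.7% ± 6.46 (SD, n = 10) against 24.9% ± 2.26 (SD, n = 11) for elevated CO2, a difference of -13.9 percentage points (exact permutation test within nitrate levels, two-sided p = 0.00012). Without that library and replicate 4 at 16 mM, the 420 ppm mean was 41.6% ± 1.98 (SD, n = 8) and the difference -16.5 points. No p-value is given for this, since the pair was removed for lying near the 600 ppm libraries.

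By nitrate level the share differed by -17.4 points at 6 mM and -12.1 points at 16 mM (exact permutation p = 0.029 at both, adjusted over the levels 0.043). At 10 mM it differed by -12.2 points and did not pass (exact permutation p = 0.11). The 4 libraries of 10 mM and 420 ppm held 24.6%, 42.7%, 43.3% and 38.7%, against 26.9%, 24.8% and 23.7% at 600 ppm. Of the first 100 genes, 55, 43 and 39 fell at 6, 10 and 16 mM, while 3, 1 and 1 rose. Over all genes tested, 6.26%, 2.33% and 3% fell and 6.77%, 2.33% and 1.64% rose.

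**Figure D3:**
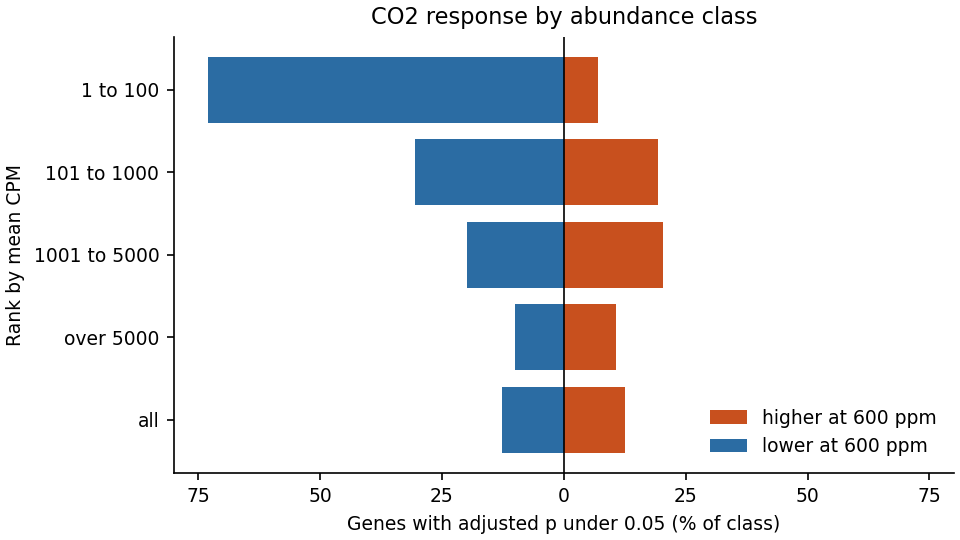
Percentage of genes called higher (orange) or lower (blue) at 600 ppm over the nitrate levels, by rank of mean CPM over 85 libraries. The first 100 genes are mostly lower, with 73 lower and 7 higher, and over all genes the split is even at 12.6% each way.

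Single nitrate levels gave fewer calls than their average, most at the lowest nitrate supply. At 6 mM, 1650 genes rose and 1526 fell (6.77% and 6.26%, 13% in all, edgeR adjusted p under 0.05). At 10 mM, 567 rose and 568 fell (2.33% each way, 4.65% in all). At 16 mM, 399 rose and 731 fell (1.64% and 3%, 4.63% in all). Under scaling by library totals the splits turned to 2923 higher and 793 lower at 6 mM, 1514 and 259 at 10 mM, and 1453 and 413 at 16 mM, so the excess of falls at 16 mM does not hold under that scaling. Separation of all libraries of a level, 3 against 4, was seen for 24%, 16.7% and 15.8% of genes as nitrate went up. Without the outlying pair the calls were 3292, 1238 and 804, of which 97.4%, 80% and 58% of the original calls remained in the same direction.

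These counts also rested on other single libraries. Without replicate 3 of 6 mM and 420 ppm, whose library number lies among those of 16 mM, 1607 genes were called at 6 mM in place of 3176. In limma-trend, which called 3442, 1150 and 1052 genes at 6, 10 and 16 mM with all libraries, leaving out 1 library at 6 mM gave 2147 (420 ppm, replicate 3) or 2048 (420 ppm, replicate 2). At 10 mM it gave 326 and 369 (600 ppm, replicates 3 and 4) or 455, 758 and 641 (420 ppm, replicates 2, 3 and 4). At 16 mM it gave 603 and 649 (600 ppm, replicates 2 and 4) or 478 and 668 (420 ppm, replicates 1 and 2). Over all such omissions the count stayed between 2048 and 3507 at 6 mM, 326 and 1393 at 10 mM, and 478 and 1095 at 16 mM, so 6 mM kept the largest count. A count of calls is not a test of the difference between levels.

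Directions were mostly shared by the levels. Of the genes called over the levels, 5755 (93.5%) had the same sign at all 3, against 47.4% of all genes, and since the average uses the same libraries this is a description. Called separately, 91 genes rose and 161 fell at every level, 654 were called in the same direction at 2 levels and 3362 at 1 level, while 8 were called in opposite directions. A further 2654 genes (43.1% of those called over the levels) were called at no single level. The genes that rose at 6 mM had a median log2 fold change of 1.99 there, 0.73 at 10 mM and 0.59 at 16 mM. Of them, 86.8% and 80.4% had the same sign at those levels. Genes chosen by their calls at a level are larger there by selection, so this drop does not compare the levels. Those that rose at 10 mM likewise had a median of 1.24 there, 0.86 at 6 mM and 0.78 at 16 mM. Those that rose at 16 mM had 1.07 there, 0.62 at 6 mM and 0.72 at 10 mM. Across all genes the responses correlated with Pearson's r = 0.45 between 6 and 10 mM, 0.33 between 6 and 16 mM and 0.41 between 10 and 16 mM, each pair being made of separate libraries. Genes are no independent replicates, and leaving out 1 library at a time gave 0.37 to 0.51, 0.24 to 0.44 and 0.28 to 0.49.

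**Figure D4:**
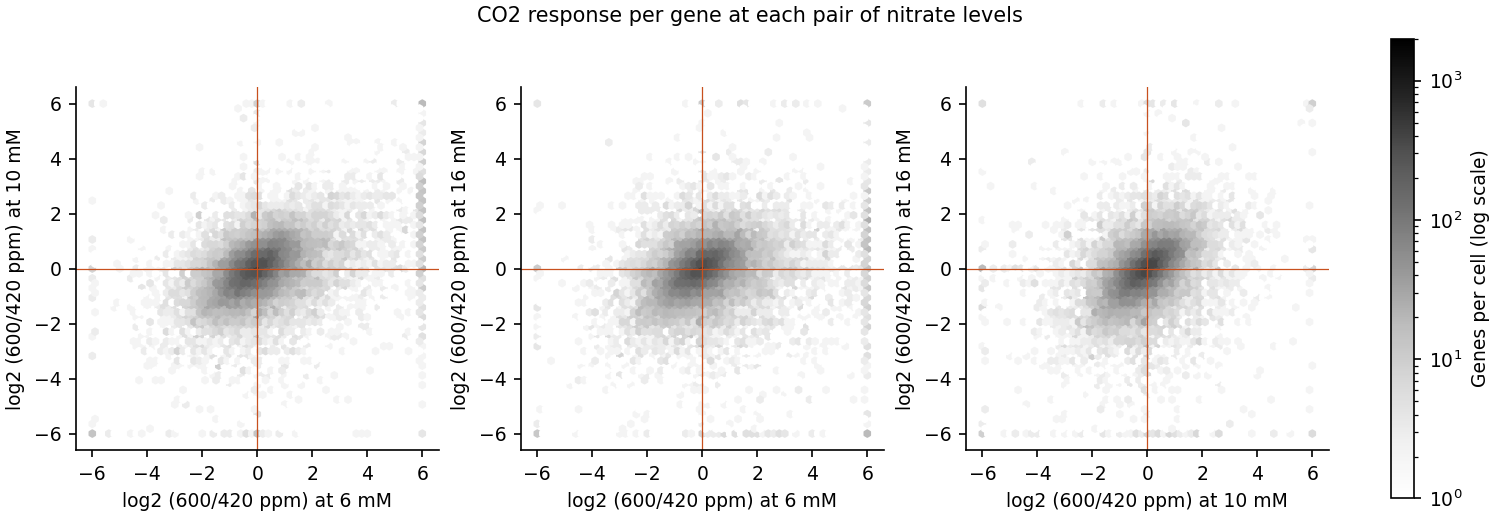
log2 fold change between 600 and 420 ppm of each of 24386 genes at one nitrate level against another, with darker cells holding more genes and values beyond 6 drawn at the edge. The clouds lean along the diagonal, with Pearson's r of 0.45, 0.33 and 0.41 from left to right.

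The genes described for a single level were likewise chosen from those with no overlap at that level and not yet described, so they need not be the most abundant or most changed of all called there. At 6 mM the largest fitted rise among these was that of MsG0580024424.01, which held no count in the 3 libraries at 420 ppm and 117, 96.9, 93.3 and 240 CPM in the 4 at 600 ppm. With 12718 counts against none and a floor of 3 over the group, it was at least 2386-fold higher (edgeR adjusted p = 0.004). At 10 mM it held 5.7, 4.59, 6.1 and 11.8 CPM at 420 ppm and 0.185, 111 and 18 CPM at 600 ppm. There the CO2 levels overlapped, and neither that level (log2 fold change 2.62, edgeR adjusted p = 0.39) nor 16 mM (2.45, adjusted p = 0.47) passed. The differences of response between 6 and 10 mM (adjusted p = 0.25) and between 6 and 16 mM (adjusted p = 0.14) did not pass either.

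MsG0380016874.01, rank 95, was the most abundant of the separated genes that rose at 6 mM, with 32.7, 51.1 and 31.6 CPM at 420 ppm and 4319, 1152, 3941 and 2294 CPM at 600 ppm. Low values were confined to 420 ppm at this level, and the log2 fold change was 6.25 ± 1.4 (SE, edgeR adjusted p = 0.0018). At 16 mM the 420 ppm libraries already held 1533, 679 and 793 CPM and the 600 ppm ones 2084, 856, 1319 and 1575 CPM. Those ranges overlapped (log2 fold change 0.54, edgeR adjusted p = 0.85), and the difference between 6 and 16 mM was 5.71 ± 1.6 without passing (adjusted p = 0.095).

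Among the separated falls at 6 mM, MsG0780040226.01 had the largest fitted one, with 11.6, 31.2 and 14.2 CPM at 420 ppm and no count in the 4 libraries at 600 ppm. From 927 counts to none it was at least 548-fold lower (edgeR adjusted p = 0.018). At the other levels it was scattered, from 0 to 22.1 CPM at 420 ppm and from 0 to 21.7 CPM at 600 ppm. MsG0480022765.01, which ranked 1 in the series, also fell at 6 mM. It held 37214, 56852 and 61790 CPM at 420 ppm and 28442, 23034, 19783 and 16640 CPM at 600 ppm. All 420 ppm values were the higher ones, with a log2 fold change of -1.24 ± 0.38 (SE, edgeR adjusted p = 0.022). It also fell at 10 mM (-1.65, adjusted p = 0.01) and at 16 mM (-1.43, adjusted p = 0.018), although the 10 mM replicate that stood apart, at 11942 CPM, lay below all of its 600 ppm counterparts.

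At 10 mM, MsG0180000710.01 had the largest fitted rise of the genes so chosen. Its values at 420 ppm were 0, 0.0521, 0 and 0.12 CPM, or 3 counts in all, and those at 600 ppm 35.2, 0.357 and 57.6 CPM. A single one of the 600 ppm libraries was nearly as low as those at 420 ppm. Its ratio of summed counts was 748, with exact 95% limits of 256 and 3631 for counting error (edgeR adjusted p = 0.0014). The most abundant of them was MsG0480018995.01, rank 29, with 3396, 2731, 3539 and 2776 CPM at 420 ppm and 6494, 7408 and 13097 CPM at 600 ppm. Its groups were well apart at 10 mM (log2 fold change 1.53 ± 0.38, SE, edgeR adjusted p = 0.011). It rose likewise at 6 mM (1.45, adjusted p = 0.011) and at 16 mM (1.28, adjusted p = 0.044), where the groups did not overlap, whereas 1 library at 6 mM and 600 ppm, with 1882 CPM, lay below all 3 at 420 ppm.

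MsG0680031739.01 led the falls so chosen at 10 mM, with 0.651, 2.09, 4.62 and 0.956 CPM at 420 ppm and no count at 600 ppm, at least 42-fold lower from 152 counts (edgeR adjusted p = 0.012). It also fell at 16 mM, with some overlap (log2 fold change -5.71, adjusted p = 0.015), while at 6 mM the fitted change was -0.03 (adjusted p = 1). The differences between 6 mM and the other levels did not pass (adjusted p = 0.22 and 0.17). MsG0180000417.01, rank 12, was the most abundant separated gene not yet described that fell, from 7812, 7178, 9715 and 8494 CPM to 5278, 3395 and 2797 CPM. Its log2 fold change was -1.12 ± 0.32 (SE, edgeR adjusted p = 0.027), and replicate 1 at 420 ppm was among the high values for this gene.

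At 16 mM, MsG0480018351.01 rose from no count at 420 ppm to 0.599, 9.22, 0.403 and 17.7 CPM at 600 ppm, at least 141-fold over 684 counts (edgeR adjusted p = 0.039). A pair of those libraries was high and the other pair low. MsG0180000291.01, rank 113, was the most abundant separated gene not yet described that rose, from 449, 672 and 665 CPM to 1112, 1276, 1256 and 955 CPM. The groups did not overlap, and the log2 fold change was 0.95 ± 0.27 (SE, edgeR adjusted p = 0.03). Without the outlying pair of libraries neither passed (adjusted p = 0.12 and 0.061).

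The largest fitted fall of the genes so chosen at 16 mM was that of MsG0480019195.01, and its call rested on 1 library. At 420 ppm it held 1.17, 1.49 and, in the outlying replicate 4, 1113 CPM, against 0, 0, 0.0895 and 0.0735 CPM at 600 ppm. The log2 fold change was -12.85 (edgeR adjusted p = 0.0085), and without the outlying pair it was -4.75 and did not pass (adjusted p = 0.41). MsG0880045778.01, rank 6, was the most abundant separated gene not yet described that fell, and its call did not depend on that library. It held 13644, 10965 and 6488 CPM at 420 ppm and 5719, 4242, 5642 and 3404 CPM at 600 ppm, with replicate 4 the lowest of the 420 ppm values. The log2 fold change was -1.13 ± 0.29 (SE, edgeR adjusted p = 0.016), and -1.39 without the pair (adjusted p = 0.005).

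The calls at single levels were less firm than those over the levels: of the genes named for 6, 10 and 16 mM, MsG0580024424.01, MsG0380016874.01 and MsG0180000710.01 stayed past the threshold in all 13 other settings tried, and each of the others missed it in 3 to 6 of them.

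Tests of the difference in response between nitrate levels called almost nothing. Between 6 and 10 mM, edgeR called 3 genes of 24386 (0.0123%), 2 with a higher response at 6 mM and 1 with a lower one. Between 6 and 16 mM it called 10 (0.041%), 7 higher and 3 lower. Between 10 and 16 mM it called 0 (0%), with 1501 genes at an unadjusted p under 0.05. The number depended on the tool: the DESeq2 Wald test called 338, 622 and 103 genes for those 3 differences, and limma-trend 2, 34 and 5. Without the outlying pair edgeR called 0, 2 and 0. In limma-trend, leaving out 1 library at a time gave 0 to 10, 14 to 122 and 0 to 15 genes, and 15, 6 and 9 of the 21 libraries moved the respective counts more than 1.5 times.

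MsG0880047555.01 was called in both comparisons that involve 6 mM. Its CPM was 15.3, 9.98 and 33.9 at 420 ppm and 9.16, 9.07, 8.65 and 10.9 at 600 ppm with 6 mM nitrate. With 10 mM it was 14.4, 11.2, 15.2 and 12.6 at 420 ppm and 16, 47.1 and 39.7 at 600 ppm. With 16 mM it was 7.69, 12.9 and 10.9 at 420 ppm and 44.9, 19, 10.8 and 71 at 600 ppm. Higher values at 600 ppm thus appeared at the upper nitrate levels, with overlap at 16 mM, and lower ones at 6 mM, also with overlap. The log2 fold change was -1.06 at 6 mM, 1.36 at 10 mM and 1.79 at 16 mM, and the differences were -2.42 ± 0.47 (SE, edgeR adjusted p = 0.041) from 10 mM and -2.85 ± 0.49 (adjusted p = 0.004) from 16 mM. The first missed the threshold in 8 of 13 other settings and the second in 2. Without the libraries numbered replicate 4 they were -1.75 (edgeR adjusted p = 0.43) and -1.79 (adjusted p = 0.44).

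The calls of the other named differences between nitrate levels were lost without the outlying pair. So was that of MsG0880047555.01 between 6 and 10 mM. MsG0180002249.01 had 510 CPM in replicate 1 of 10 mM and 420 ppm, and 1.46, 3.35 and 4.54 CPM in the other 3. At 6 mM and 600 ppm it had 249, 0.198, 539 and 6.71 CPM, so high values were scattered over both CO2 levels. Its difference between 6 and 10 mM was 14.15 ± 2.8 (SE, edgeR adjusted p = 0.041), and 8.75 without the outlying pair (adjusted p = 0.29). MsG0380012178.01 had 128 CPM in replicate 4 of 16 mM and 420 ppm, and 11.9 to 55.9 CPM in the other 20 libraries. Its difference between 6 and 16 mM was 2.32 ± 0.43 (SE, edgeR adjusted p = 0.0094), and 1.21 without the pair (adjusted p = 0.31).

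The response of ineffective Saranac differed from that of effective Saranac, the class of the same cultivar whose nodules fix nitrogen, in 1260 genes. Effective Saranac had 21 libraries in the same CO2 and nitrate treatments, 11 at 420 and 10 at 600 ppm. In 678 genes (2.78% of those tested) the response was higher in the ineffective class and in 582 (2.39%) lower, 5.17% in all (edgeR test of the interaction, adjusted p under 0.05). Within the 678, 438 rose in the ineffective class without passing in the effective one, 153 fell in the effective class alone and 51 rose in one and fell in the other, with medians of 0.64 and -0.26. Within the 582, 327 fell in the ineffective class alone, 171 rose in the effective class alone and 33 went in opposite directions, with medians of -0.9 and 0.41. Under scaling by library totals, 746 were higher and 394 lower. DESeq2 called 2158 such genes and limma-trend 1109, and without the outlying pair edgeR called 1315, with 83.4% of the original calls among them.

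Both classes lowered their most abundant transcripts, the ineffective one further in some of them. Of the first 100 genes, 47 fell and 2 rose in effective Saranac, against 8.98% and 9.67% of all genes. The median log2 fold change of the 100 was -0.47 there in place of -0.86. The difference in response itself was called lower for 20 of the 100 and higher for 4, against 2.39% and 2.78% of all genes. Its median was -0.40 against -0.03 over all genes. Among the 4000 genes after the first 100 and the next 900, the balance was the other way, with 252 higher and 110 lower. The share of counts in the first 100 genes went from 41.7% ± 0.714 (SD, n = 11) to 33.3% ± 3.75 (SD, n = 10) in effective Saranac, a difference of -8.4 points (exact permutation p = 2e-05). Its lowest library at 600 ppm, at 29.8%, was above the highest of ineffective Saranac at 28.6%. The fall was not particular to Saranac. In ineffective Agate 71 of the 100 fell and 4 rose (median -0.8), against 10.3% and 7.13% of all genes. The share of counts in the 100 differed there by -11.2 points (exact permutation p = 0.0013). In effective Agate 53 fell and 1 rose (median -0.52), against 7.19% and 7.93% of all genes. The share of counts differed there by -8.52 points (exact permutation p = 0.001).

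MsG0280008103.01 had the strongest evidence of a higher response. In ineffective Saranac it ranged from 121 through 176 to 391 CPM at 420 ppm and from 269 through 406 to 661 CPM at 600 ppm. In effective Saranac it had a median of 161 and a highest value of 308 CPM at 420 ppm, and ranged from 68.5 through 113 to 196 CPM at 600 ppm. It rose in the first (log2 fold change 1.15 ± 0.19, SE, edgeR adjusted p = 3.2e-06) and fell in the second (-0.79 ± 0.19, adjusted p = 0.0014), although the ranges of 420 and 600 ppm overlapped in both. The difference was 1.94 ± 0.26 (adjusted p = 5e-06). In ineffective Agate the gene rose as well (log2 fold change 0.97 ± 0.19, SE, edgeR adjusted p = 0.00011).

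MsG0180003379.01, rank 128, followed. It went from a median of 670 CPM (600 to 1147) at 420 ppm to 1253 CPM (888 to 1951) at 600 ppm in ineffective Saranac. In effective Saranac it went from 623 (395 to 799) to 476 CPM (391 to 536). The 600 ppm libraries of the ineffective class all exceeded every library of the effective class, and the 420 ppm value of 1147 was that of replicate 1 at 10 mM. The difference in log2 fold change was 1.35 ± 0.19 (SE, edgeR adjusted p = 1.1e-05), from 0.92 in the ineffective and -0.43 in the effective class. In ineffective Agate its change of 0.31 did not pass (edgeR adjusted p = 0.1).

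Of the lower responses, MsG0880045782.01 fell from a median of 18.3 CPM (13.4 to 21.6) to 5.15 CPM (3.7 to 11.1) in ineffective Saranac, with no overlap. In effective Saranac it had 19.7 CPM (6.67 to 31) at 420 ppm and 20.5 CPM (15.1 to 32.9) at 600 ppm, with wide overlap. The difference was -1.85 ± 0.25 (SE, edgeR adjusted p = 5e-06), made of -1.62 ± 0.18 in the ineffective and 0.23 ± 0.17 in the effective class, of which the second did not pass (adjusted p = 0.39). In ineffective Agate its change of -0.39 did not pass (edgeR adjusted p = 0.11).

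MsG0180001094.01 was nearly switched off in ineffective Saranac at 600 ppm. In ineffective Saranac it had a median of 50 CPM (1.41 to 161) at 420 ppm and 0.139 CPM (0.033 to 1.43) at 600 ppm. In effective Saranac it had 53.6 CPM (15.4 to 89.3) and 20.6 CPM (3.87 to 74). The lowest 420 ppm value of the ineffective class, 1.41 CPM in replicate 1 at 10 mM, lay just below the highest 600 ppm one. The difference was -6.67 ± 1.0 (SE, edgeR adjusted p = 2.2e-05), with -7.71 ± 0.88 in the ineffective class and -1.04 ± 0.62 in the effective one, where it did not pass (adjusted p = 0.26). The gene also fell in ineffective Agate, from a median of 60.8 to 2.4 CPM (-3.7 ± 0.68, edgeR adjusted p = 6.9e-05). The difference in response between ineffective Saranac and ineffective Agate was not called (edgeR adjusted p = 0.16).

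**Figure D5:**
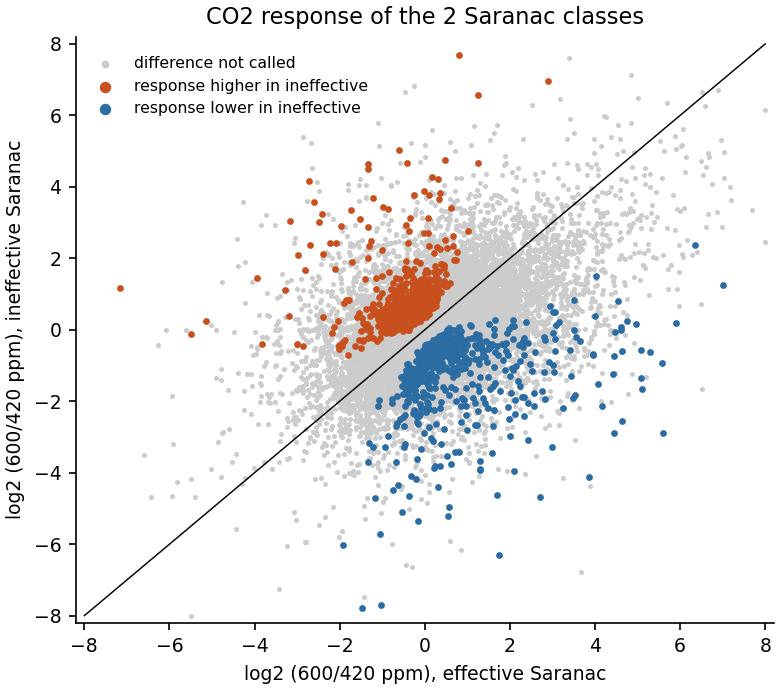
log2 fold change between 600 and 420 ppm over nitrate levels in ineffective Saranac (vertical) against effective Saranac (horizontal) for 24386 genes, with values beyond 8 drawn at the edge and the line of equal response. Orange marks the 678 genes whose response was called higher in the ineffective class and blue the 582 called lower.

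Against ineffective Agate, the other cultivar in the same class, no gene was called for a difference in response by edgeR (0%), with 2137 genes at an unadjusted p under 0.05. DESeq2 called 185 and limma-trend 0. In limma-trend the count without 1 library ranged from 0 to 5, and the 5 genes came from leaving out replicate 1 at 10 mM and 420 ppm. A count of 0 does not show that the cultivars responded alike, since the median standard error of such a difference was 0.485 on the log2 scale.

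The other lines, which share no library with ineffective Saranac, serve to show which of its changes recurred. CO2 was set by chamber and followed library number in those lines too, so recurrence cannot tell CO2 from either. Of its 3083 genes that rose, 1181 (38.3%) were also called up in ineffective Agate, 948 (30.7%) in effective Saranac and 824 (26.7%) in effective Agate. Those lines had 1738, 2359 and 1933 such calls (7.13%, 9.67% and 7.93% of genes, within 17.4%, 18.7% and 15.1% called either way), of which the shared genes were 68%, 40.2% and 42.6%. Of its 3074 genes that fell, 1696 (55.2%), 1092 (35.5%) and 982 (31.9%) were called down in the same 3 lines. These had 2505, 2191 and 1753 such calls (10.3%, 8.98% and 7.19%), and shared 67.7%, 49.8% and 56% of them. Across all genes Pearson's r with the response of ineffective Saranac was 0.69 for ineffective Agate, 0.53 for effective Saranac and 0.51 for effective Agate, as a description of 24386 genes that are not independent.

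The genes called at every nitrate level recurred more often. They had passed 3 tests, so they are larger or steadier by selection, and this is a description. Of the 91 that rose at all 3 levels, 84 were called up in ineffective Agate, 37 in effective Saranac and 34 in effective Agate. Over all genes, 7.13%, 9.67% and 7.93% were called up in those lines. The median log2 fold changes of the 91 were 0.63, 0.29 and 0.30 against 1.07 in ineffective Saranac. Of the 161 that fell, 157, 106 and 115 were called down, against 10.3%, 8.98% and 7.19% of all genes. Their medians were -1.18, -0.66 and -0.70 against -1.60. One gene of the 161 was called in the opposite direction in effective Agate, and none of the 252 in the other 2 lines. The libraries of the other lines were also scored along the difference of ineffective Saranac over all 3 nitrate levels. Ineffective Saranac itself sets -1 and 1 on that scale, so these scores cannot be set against its own score given earlier. Between 600 and 420 ppm, ineffective Agate differed by 1.3, effective Saranac by 1.05 and effective Agate by 0.903 (exact permutation p = 2.3e-05, 2e-05 and 0.00012). Whether those shifts differ from each other was not tested.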

How the data were processed

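Leaf mRNA was sequenced from stranded libraries, per the labels' protocols. The authors deposited 1 table of raw counts per gene, made with featureCounts per the submitters' processing notes. For the aligner, the build and the version and strand setting of featureCounts, the sources used here give nothing, so overlapping or near-identical genes could share reads. One library of the series, outside ineffective Saranac, has contradictory labels and entered no group, which left 85 libraries in 24 groups.

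Genes were kept with filterByExpr (24386 of 49095 identifiers, 10349 of which were 0 in every library). A single model of the 24 groups was fitted with edgeR 4.0.16 in R 4.3.3 (TMM scaling, robust quasi-likelihood F-test, Benjamini-Hochberg adjustment over all genes, threshold 0.05). CO2 contrasts were taken within each nitrate level and averaged, so that nitrate is the block. SE is the log2 fold change divided by the root of F. Only the contrast over levels was tried on simulated counts, for the ineffective Saranac libraries alone and with the same spread for every gene. The fit of all 24 groups, the single levels and the differences were not tried in this way. DESeq2 1.42.0, limma-trend (limma 3.58.1, prior count 2), DESeq2 size factors, library totals, no filter, a replicate block and fits without libraries were alternatives. Single values per library were tested by exact permutation within nitrate levels.

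Named genes were, in each direction, the one with the largest fold change and the one with the highest mean CPM among called genes of at least 1 CPM with no overlap between CO2 levels and, over levels, the same sign at each. At single levels, genes already named for the comparison over levels or for a lower nitrate level were passed over. For differences between levels or lines they were those of lowest p. The members, lists and rules were chosen with earlier results of these data known.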

Additional observations from a re-analysis of the deposited data

Results flagged for a closer look

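In 6 of 39 sets of values checked for 1 library far from the rest of its set, such a library was found. No chance rate is set beside this, because many of the sets were CPM of genes named from these same libraries. Some sets also pooled the nitrate levels. The number of genes at 1 CPM or more reached 17419 in replicate 4 of 16 mM and 420 ppm, above the other 9 libraries at 420 ppm. The same library held 128 CPM of MsG0380012178.01. Replicate 1 of 10 mM and 420 ppm held 510 CPM of MsG0180002249.01 and 1147 CPM of MsG0180003379.01. MsG0880047555.01 reached 33.9 CPM in replicate 4 of 6 mM and 420 ppm, and MsG0580024424.01 reached 240 CPM in replicate 4 of 6 mM and 600 ppm.

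Tested differences in the CO2 response between groups were called for 3 genes between 6 and 10 mM, 10 genes between 6 and 16 mM and 1260 genes between ineffective and effective Saranac. Between 6 and 10 mM the named genes differed by 14.15 (MsG0180002249.01) and -2.42 (MsG0880047555.01) on the log2 scale. Between 6 and 16 mM they differed by 2.32 (MsG0380012178.01) and -2.85 (MsG0880047555.01). Between the Saranac classes the response differed by 1.94 for MsG0280008103.01, 1.35 for MsG0180003379.01, -1.85 for MsG0880045782.01 and -6.67 for MsG0180001094.01. The cause of these differences was not tested.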

How the results depend on the processing

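Over the nitrate levels, 4082 to 5010 genes were called without 1 replicate number at a time, and the genes named there or against effective Saranac kept their calls in all 13 settings tried for each. Over all named genes, 250 of the recomputed values stayed past the threshold, 62 did not and 0 reversed. At single levels the counts without a replicate number ranged from 1152 to 2489 (6 mM), 89 to 1320 (10 mM) and 282 to 730 (16 mM). For the differences they ranged from 0 to 5 (6 minus 10 mM), 1 to 57 (6 minus 16 mM), 0 to 2 (10 minus 16 mM) and 701 to 1166 (against effective Saranac). Leaving out 1 library in limma-trend gave 2048 to 3507, 326 to 1393 and 478 to 1095 at 6, 10 and 16 mM, and for the differences 0 to 10, 14 to 122, 0 to 15 and, against ineffective Agate, 0 to 5.

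At 10 mM, 686 genes were called with no filter, 1982 by DESeq2, 1773 with library totals and 531 when only ineffective Saranac was fitted. At 16 mM, DESeq2 gave 1946, library totals 1866 and the fit of ineffective Saranac alone 574. Without replicate 3 of 6 mM and 420 ppm, 1607 were called at 6 mM, 1 for 6 minus 10 mM and 1 for 6 minus 16 mM. For 6 minus 10 mM, DESeq2 gave 338, and no filter, the fit of ineffective Saranac alone and the fit without the outlying pair each gave 0. For 6 minus 16 mM, DESeq2 gave 622, limma-trend 34, ineffective Saranac alone 43, both DESeq2 size factors and library totals 5, no filter 3 and the fit without the pair 2. For 10 minus 16 mM, DESeq2 gave 103 and limma-trend 5. DESeq2 gave 2158 against effective Saranac and 185 against ineffective Agate. The cause was not tested.

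Same-numbered libraries did not deviate together (9 pairs, r from -0.08 to 0.08, 0 over 0.1), so the numbers pair nothing. With the replicate block, 6019 genes were called over the levels, 2895, 1064 and 981 at 6, 10 and 16 mM, 0 for 6 minus 10 mM, 3 for 6 minus 16 mM, 0 for 10 minus 16 mM, 1215 against effective Saranac and 0 against ineffective Agate.

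For values per library, fewer libraries left too few arrangements for single levels to pass: the CO2 score difference was 1.09 at 16 mM without the pair and 1.52 at 6 mM without replicate 3 of 420 ppm (exact permutation p = 0.067), and 0.532 to 1.08 and 1.2 to 1.47 without a replicate number. The share of the first 100 genes likewise differed by -15.6 at 16 mM and -16.8 at 6 mM, and by -14.7 to -9.96 and -18.7 to -15.9 points. The number of detected genes had no stable sign: -94 at 10 mM and -49 over levels at 0.1 CPM, 363 at 6 mM and 147 over levels at 10 CPM (exact permutation p = 0.032 over levels), -21 without replicate 3 of 6 mM and 420 ppm, and -38 to 70 without a replicate number. Genes of few counts are limited by depth.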
